A study of Homo sapiens with 4 samples.

Results

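The annexins are a family of cytosolic proteins that bind phospholipid membranes when calcium rises. The members described here are the 10 genes ANXA1 to ANXA9 and ANXA11, taken by gene symbol from a count table of 19399 usable rows, and all 10 were present and measured. They were compared between A549 cells with knockdown of NUPR1 and control A549 cells. A549 is a human lung adenocarcinoma cell line, and NUPR1, also called p8, is a small stress-induced chromatin protein. Polyadenylated RNA was sequenced as 2 libraries of knockdown cells and 2 libraries of control cells, 1 of them single-end and the other paired-end in either group, but the tables hold 1 column per group. No difference below therefore has a replicate check, and no p-value can be given. Labels do not say how the knockdown was made, how control cells were treated or whether a clone was used.

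Each annexin has a conserved core of repeated domains that binds calcium and acidic phospholipids such as phosphatidylserine, and a variable N-terminal tail that binds other proteins. Through these contacts annexins take part in membrane trafficking, in the repair of torn plasma membranes and in the link between membranes and actin. Annexin A1 and annexin A2 are abundant in lung epithelium, where annexin A1 is known as a glucocorticoid-regulated mediator that limits inflammation.

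The columns held 16635336 reads for the knockdown and 20289107 reads for the control, so 1 read was worth 0.0595 CPM (the read count relative to the TMM-scaled total of its column) in knockdown cells and 0.0498 CPM in control cells. NUPR1 itself had 71 reads in knockdown cells and 197 in control cells, which is 4.23 CPM against 9.80 CPM with a log2 ratio of -1.21 (-1.63 to -0.81), or 2.32-fold lower in knockdown cells. The 6 epithelial markers summed to 21637 CPM in knockdown cells and 19310 CPM in control cells, almost all of it keratin, with log2 ratios of 0.26 for KRT8, 0.18 for KRT18 and -0.31 for KRT7. CDH1 had 1197 reads in knockdown cells and 865 in control cells, with a log2 ratio of 0.73 (0.60 to 0.86), past the 1.5-fold mark, whereas EPCAM had 68 reads in knockdown cells and 84 in control cells and KRT19 had 22 in knockdown cells and 46 in control cells. The 8 alveolar type II markers with a row summed to 39.1 CPM in knockdown cells and 33.8 CPM in control cells, with ABCA3 giving most of it, and the surfactant genes had 9 to 53 reads in knockdown cells and 6 to 42 in control cells. Leukocyte, fibroblast, endothelial and red cell markers had at most 27 reads in knockdown cells and 26 in control cells, and PECAM1 and HBA1 had 0 reads in the knockdown column. Intervals below are at 95% and cover counting error only. They take each read as independent, which PCR copies or separately counted mates would break.

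ANXA2 and ANXA8 have near-identical copies elsewhere in the genome, and the first 60 coding bases are shown because they illustrate how hard short reads of gene and copy are to tell apart. In ANXA2 this stretch encodes the start of the N-terminal tail, the part that binds S100A10. The sequences are 5′ to 3′ from GENCODE release 29. Capitals mark the start codon in the gene and the bases that differ from the gene in the copy.
ANXA2: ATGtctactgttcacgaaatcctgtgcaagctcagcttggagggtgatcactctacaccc
ANXA2P2: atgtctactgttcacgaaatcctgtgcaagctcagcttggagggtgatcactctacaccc
ANXA2P3: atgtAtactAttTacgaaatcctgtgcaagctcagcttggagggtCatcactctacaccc
ANXA8: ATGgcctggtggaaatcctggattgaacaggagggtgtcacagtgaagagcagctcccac
ANXA8L1: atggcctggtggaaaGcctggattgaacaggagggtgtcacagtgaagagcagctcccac
ANXA2P2, a processed pseudogene on chromosome 9, differed from the ANXA2 gene on chromosome 15 at 16 of 1017 coding bases, and 59.4% of 50-base windows of ANXA2 were found unchanged in it. ANXA2P3 on chromosome 10 and ANXA2P1 on chromosome 4 were more distant, with 92.2% and 93.8% identity. ANXA8L1, on chromosome 10 like ANXA8, differed at 5 of 1095 coding bases, and 84.6% of 50-base windows of ANXA8 were unchanged in it. The counting of reads that match both gene and copy is not stated, so the levels of ANXA2 and ANXA8 are uncertain to that extent.

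Of the 10 members, 9 reached a mean of 5 CPM and 8 reached a mean of 100 CPM. None of those 9 was 1.5-fold higher or 1.5-fold lower in knockdown cells. Over all 10689 genes with a mean of at least 5 CPM, 3.72% were 1.5-fold higher and 4.44% were 1.5-fold lower. At 2-fold the members again gave 0 in each direction, where 0.992% of these genes were higher and 1.13% were lower. Among the 1911 genes with a mean of at least 100 CPM, 1.83% were 1.5-fold higher and 2.83% were 1.5-fold lower. Of the 9 members, 6 had a ratio above 1 and 3 had a ratio below 1. The median log2 ratio of the 9 members was 0.25, against 0.01 over all genes with a mean of at least 5 CPM, whose ratios ran from -0.56 at the 5th percentile to 0.52 at the 95th. This set of genes was 51.2% above a ratio of 1, and the genes over 100 CPM were 54.3% above it.

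**Figure D1:**
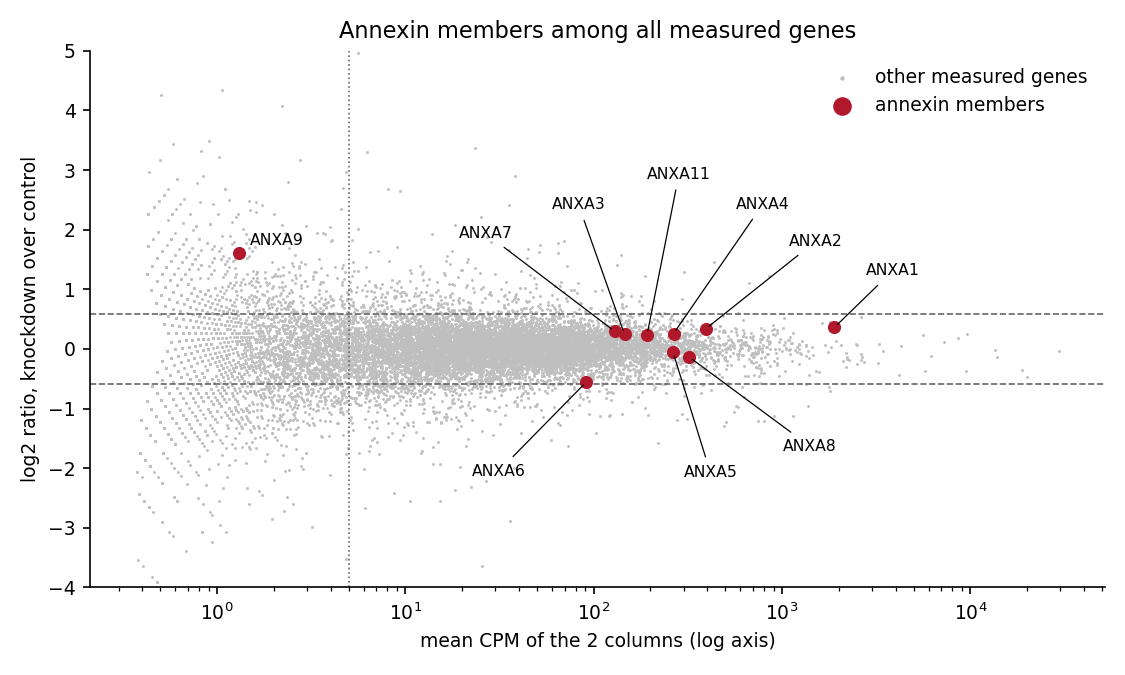
Each grey point is 1 of 14175 measured genes, with its mean CPM on a log x axis and its log2 ratio of knockdown over control on the y axis. Red points are the 10 members, dashed lines mark 1.5-fold, the dotted line marks 5 CPM, and 4 genes fall outside the y axis. ANXA6 lies just inside the lower dashed line, and ANXA9 is the member left of the dotted line.

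ANXA1 encodes annexin A1 (lipocortin 1), which acts on phospholipase A2 signalling and, once released, on formyl peptide receptors. It had the most reads of all members, 35817 reads in knockdown cells and 33368 in control cells, or 2133 CPM against 1660 CPM. In bulk RNA such a difference cannot be split into more cells of a kind and more RNA per cell. Its log2 ratio was 0.36 (0.34 to 0.38), a 1.28-fold higher level in knockdown cells, and 89.5% of genes with a mean of at least 5 CPM had a lower ratio. ANXA1 took 53.2% (52.8 to 53.6) of all reads of the family in knockdown cells and 49.0% (48.6 to 49.4) in control cells, by exact binomial intervals.

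ANXA2 encodes annexin A2, which forms a complex with S100A10 at the plasma membrane that binds plasminogen and its activator. It had 7352 reads in knockdown cells and 6973 in control cells, or 438 CPM against 347 CPM. Its log2 ratio was 0.34 (0.29 to 0.38), a 1.26-fold higher level. The difference between the log2 ratios of ANXA1 and ANXA2 was 0.03 with an interval of -0.03 to 0.08, so these were not separated at this depth. With the reads of ANXA2P1, ANXA2P2 and ANXA2P3 added, ANXA2 had 7367 reads in knockdown cells and 6994 in control cells and a log2 ratio of 0.33. The pseudogene rows were close to empty: ANXA2P1 had 1 read in knockdown cells and 0 in control cells, ANXA2P2 had 1 in knockdown cells and 8 in control cells, and ANXA2P3 had 13 in each. ANXA2R, a receptor for annexin A2, had 11 reads in knockdown cells and 15 in control cells, too few to give a direction.

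**Figure D2:**
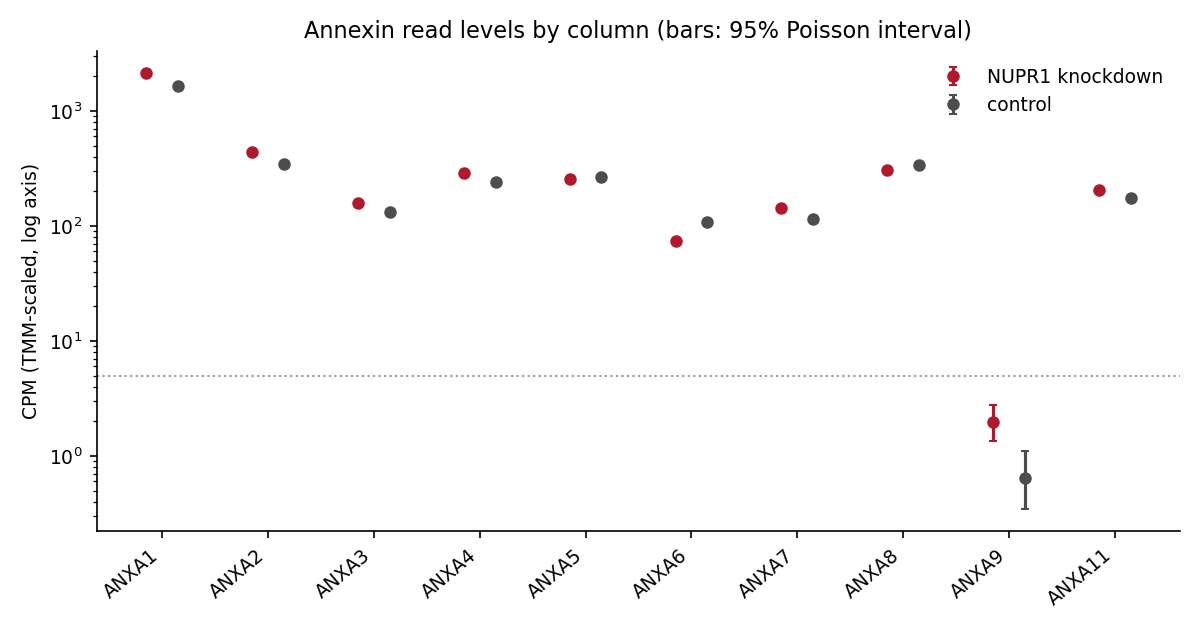
Level of each member in CPM on a log axis, with the knockdown column in red and the control column in grey, bars giving 95% Poisson intervals and the dotted line marking 5 CPM. ANXA1 stands at 2133 CPM in knockdown cells and 1660 CPM in control cells, 8 further members lie between 74.0 and 438 CPM, and ANXA9 lies at 1.97 CPM in knockdown cells and 0.647 CPM in control cells.

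ANXA3, ANXA4 and ANXA5 are members with short N-terminal tails. ANXA3 had 2652 reads in knockdown cells and 2677 in control cells, or 158 CPM against 133 CPM, with a log2 ratio of 0.25 (0.17 to 0.32). ANXA4, known from secretory epithelia, had 4846 reads in knockdown cells and 4853 in control cells, or 289 CPM against 241 CPM, with a log2 ratio of 0.26 (0.20 to 0.31). Both ratios were above 1 with intervals above 0. ANXA5 encodes the phosphatidylserine-binding protein used as a probe of dying cells. It had 4341 reads in knockdown cells and 5391 in control cells, or 258 CPM against 268 CPM. Its log2 ratio of -0.05 (-0.11 to 0.0045) was the only one among the 10 members whose interval held 0.

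ANXA6 encodes annexin A6, whose core is duplicated and which is known to act in cholesterol traffic through late endosomes and in calcium-dependent control of Ras signalling. It had 1243 reads in knockdown cells and 2183 in control cells, or 74.0 CPM against 109 CPM. The log2 ratio was -0.55 (-0.66 to -0.45), or 1.47-fold lower, just short of the 1.5-fold mark. Among genes with a mean of at least 5 CPM, 5.05% had a lower ratio. Among those with at least 100 CPM, a set that ANXA6 at a mean of 91.3 CPM lies outside, 3.19% did. In each of its 9 pairs with another member, the interval of the difference between log2 ratios lay away from 0 with ANXA6 lower, by 0.91 (0.81 to 1.02) against ANXA1 and by 0.42 (0.30 to 0.53) against ANXA8. ANXA6 took 1.85% of the family's reads in knockdown cells and 3.21% in control cells.

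ANXA7 and ANXA11 have long N-terminal tails that bind calcium sensors such as sorcin and ALG-2, and annexin A11 is also known to tether RNA granules to lysosomes. ANXA7 had 2389 reads in knockdown cells and 2332 in control cells, or 142 CPM against 116 CPM, with a log2 ratio of 0.29 (0.21 to 0.38). ANXA11 had 3480 reads in knockdown cells and 3541 in control cells, or 207 CPM against 176 CPM, with a log2 ratio of 0.23 (0.17 to 0.30). The log2 ratios of ANXA1, ANXA2, ANXA3, ANXA4, ANXA7 and ANXA11 thus all lay between 0.23 and 0.36. Of the 15 pairs among these 6 members, 10 had an interval of the difference that held 0. Over all 45 pairs of members, 35 had an interval that did not hold 0.

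ANXA8 had 5140 reads in knockdown cells and 6765 in control cells, or 306 CPM against 337 CPM, with a log2 ratio of -0.14 (-0.19 to -0.08). The row of its copy, named ANXA8L2 and listed in RefSeq as an older symbol of ANXA8L1, had 147 reads in knockdown cells and 167 in control cells. Added together, these rows gave 315 CPM in knockdown cells and 345 CPM in control cells and a log2 ratio of -0.13 (-0.18 to -0.08). ANXA9, a member whose core has lost the usual calcium-binding residues, had 33 reads in knockdown cells and 13 in control cells, or 1.97 CPM against 0.647 CPM. Its log2 ratio of 1.60 (0.64 to 2.65) was the highest of the members, at a mean of 1.31 CPM, below the 5 CPM required of a called gene.

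**Figure D3:**
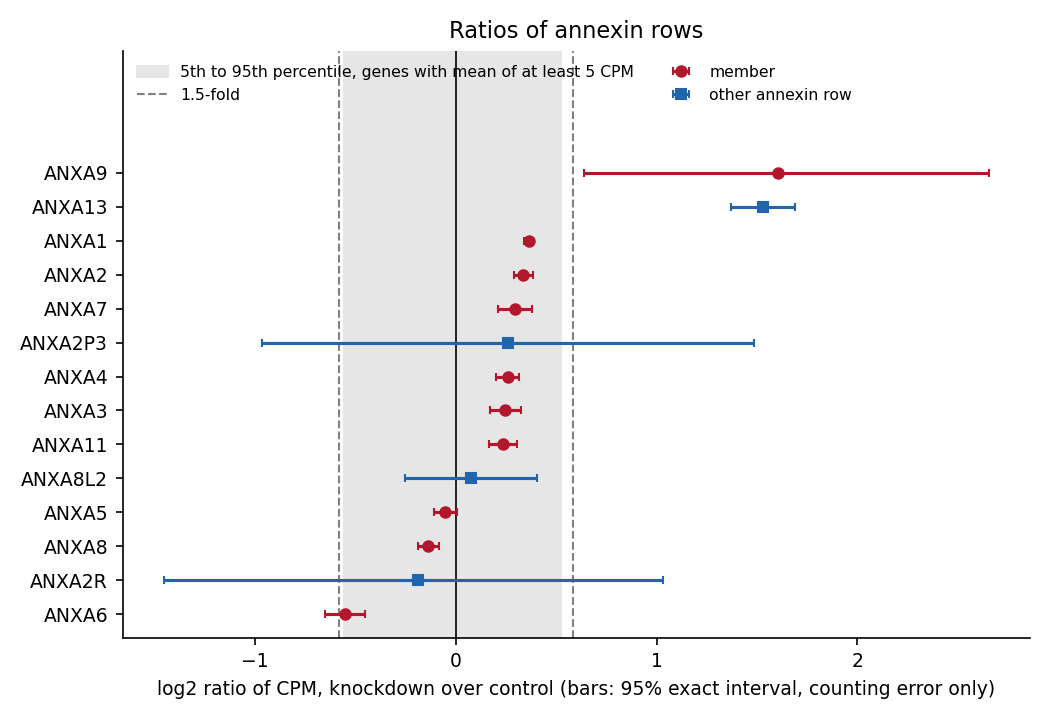
Log2 ratio of CPM, knockdown over control, for the 10 members in red and the 4 other measured annexin rows in blue, with exact 95% intervals for counting error. The grey band runs from -0.56 to 0.52, the 5th to 95th percentile of genes with a mean of at least 5 CPM, and dashed lines mark 1.5-fold. ANXA13 and ANXA9 lie right of the band, and ANXA6 lies at its left edge.

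Among annexin rows outside the 10 members, ANXA13 stood apart. ANXA13, the annexin of intestinal and kidney epithelium, had 1101 reads in knockdown cells and 457 in control cells, or 65.6 CPM against 22.7 CPM. Its log2 ratio was 1.53 (1.37 to 1.69), a 2.88-fold higher level in knockdown cells. It was the 1 annexin row of the table with a mean of at least 5 CPM that passed 1.5-fold in either direction. ANXA10 had 0 reads in knockdown cells and 1 in control cells.

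The family as a whole had 67293 reads in knockdown cells and 68096 in control cells, or 4007 CPM against 3388 CPM. This was 0.405% of all reads of the knockdown column and 0.336% of the control column, with a log2 ratio of 0.24 (0.23 to 0.26). Without ANXA1 the sums were 1874 CPM in knockdown cells and 1728 CPM in control cells, with a log2 ratio of 0.12 (0.10 to 0.14). ANXA1 therefore carried most of the difference in the summed level.

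Levels can be compared between members only per length of transcript. In CPM per kilobase of deposited gene length, ANXA1 led with 769 in knockdown cells and 599 in control cells. ANXA2 had 190 in knockdown cells and 151 in control cells, and ANXA5 had 158 in knockdown cells and 164 in control cells, so that ANXA2 stood above ANXA5 in knockdown cells and below it in the control column. With this length the order then ran ANXA3, ANXA4, ANXA7, ANXA11, ANXA8, ANXA6 and ANXA9 in both columns. The intervals of ANXA3 and ANXA4, and of ANXA7 and ANXA11, overlapped in both columns, and those of ANXA8 and ANXA6 overlapped in the control column, at 36.4 and 34.9 CPM per kilobase. This order depended on the length used. With the longest coding transcript of GENCODE 29, ANXA2 stood above ANXA5 in both columns, at 261 against 147 CPM per kilobase in knockdown cells and 207 against 152 in control cells. ANXA4 then stood above ANXA3 in both columns, and ANXA6 stood above ANXA11 in control cells, at 41.9 against 25.3 CPM per kilobase. The place of ANXA8 moved most. Its deposited length of 9257 bases is 4.26 times the 2174 bases of its longest coding transcript in GENCODE 29, and with the shorter length its level was 141 CPM per kilobase in knockdown cells and 155 in control cells in place of 33.1 in knockdown cells and 36.4 in control cells. Its place then moved from 8 to 4 in knockdown cells and from 8 to 3 in the control column. ANXA11 had a deposited length of 4034 bases against 6965 in GENCODE 29.

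**Figure D4:**
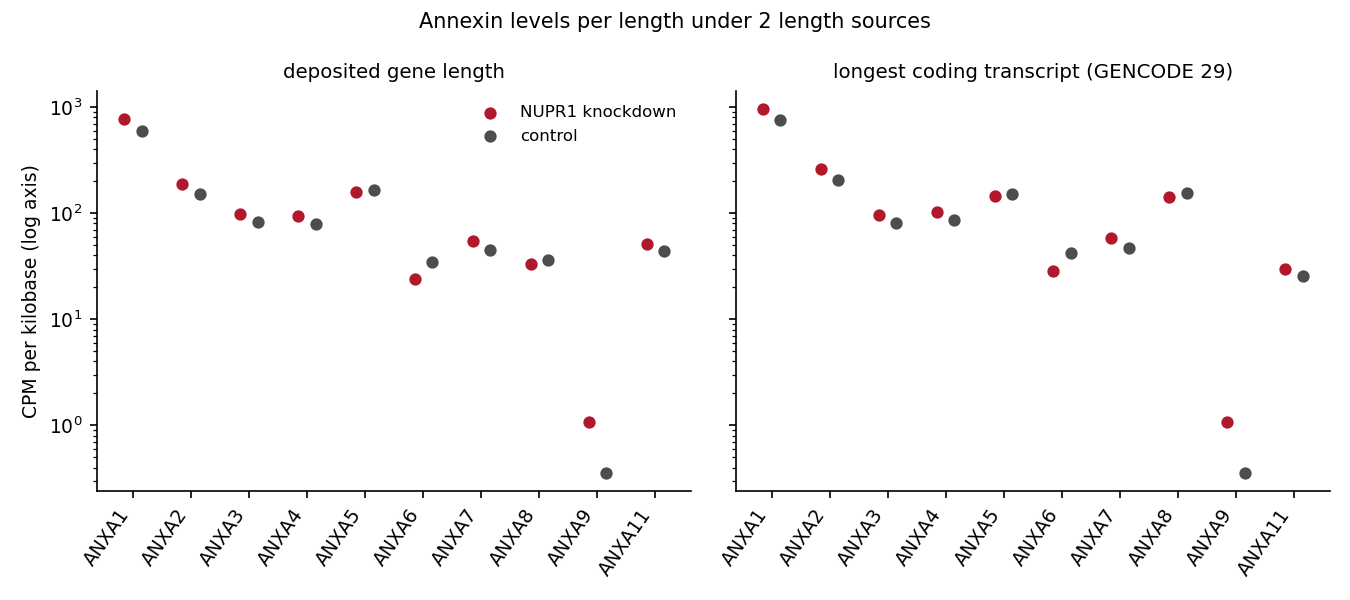
Level per kilobase on a log axis for each member, with the deposited gene length in the left panel and the longest coding transcript of GENCODE 29 in the right panel, knockdown in red and control in grey. ANXA8 stands at 33.1 (knockdown) and 36.4 (control) CPM per kilobase in the left panel and at 141 (knockdown) and 155 (control) in the right panel, and ANXA9 is lowest in both.

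Genes with levels most like the members at either end were found by the distance between log2 CPM per kilobase over the 2 columns. LXN, with 442 reads in knockdown cells and 781 in control cells, lay nearest to ANXA6 at a distance of 0.0227, followed by APLP1 at 0.0429 and FEZ2 at 0.0585. KRT16, with 37 reads in knockdown cells and 15 in control cells, lay nearest to ANXA9 at 0.0445, followed by PAOX at 0.163 and ACBD7 at 0.200.

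Promoter sequence of 3 members is shown because their ratios lie at the ends of the range of members over 5 CPM, with ANXA1 and ANXA2 at the upper end and ANXA6 at the lower end. Each runs from 250 bases before to 50 bases after the start of the gene, 5′ to 3′ on the gene's strand, from RefSeq on GRCh38.p14. Capitals mark matches, on either strand, to short promoter motifs. The TATA box was searched as TATAAA. The CCAAT box was searched by the letters of its name. The GC box was searched as GGGCGG, where overlapping matches were each counted. The AP-1 site was searched as TGANTCA. The E box was searched as CACGTG.
ANXA1, chr9:73151615-73151914, plus strand: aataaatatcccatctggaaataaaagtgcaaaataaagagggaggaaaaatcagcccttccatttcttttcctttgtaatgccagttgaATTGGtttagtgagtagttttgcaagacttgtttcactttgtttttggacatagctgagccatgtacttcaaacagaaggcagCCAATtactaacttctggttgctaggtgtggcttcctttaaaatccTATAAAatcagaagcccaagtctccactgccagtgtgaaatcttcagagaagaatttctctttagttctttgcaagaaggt
ANXA2, chr15:60397937-60398236, minus strand: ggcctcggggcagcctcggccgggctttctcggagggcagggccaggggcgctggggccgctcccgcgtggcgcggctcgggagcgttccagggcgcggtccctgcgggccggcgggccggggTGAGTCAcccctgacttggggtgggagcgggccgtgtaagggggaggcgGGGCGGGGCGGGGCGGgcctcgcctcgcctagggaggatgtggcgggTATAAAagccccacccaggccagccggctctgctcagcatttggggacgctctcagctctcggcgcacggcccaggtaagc
ANXA6, chr5:151157730-151158029, minus strand: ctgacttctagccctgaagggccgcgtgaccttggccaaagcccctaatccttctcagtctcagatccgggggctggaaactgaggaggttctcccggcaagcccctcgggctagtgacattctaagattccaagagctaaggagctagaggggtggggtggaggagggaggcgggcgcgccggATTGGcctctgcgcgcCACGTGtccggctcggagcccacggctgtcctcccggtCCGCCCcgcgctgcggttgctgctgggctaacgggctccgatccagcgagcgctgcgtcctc
The ANXA1 window held a TATA box 31 bases before the start and a CCAAT box at 77 bases before it and, on the other strand, at 160. Its GC content was 37.7%, against a median of 58.7% over 35097 promoters. The ANXA2 window held a TATA box at the same 31 bases before the start, 3 GC boxes that overlap one another and an AP-1 match 127 bases before the start, at a GC content of 76.0%. The ANXA6 window held a CCAAT box 66 bases and a GC box 12 bases before the start, both on the other strand. It also held an E box 50 bases before the start, and no TATA box. A further ANXA6 promoter in the table held none of these letters. Over all promoters of the same length 11.5% held the TATA box letters, 34.6% those of the CCAAT box, 44.9% those of the GC box, 7.71% those of the AP-1 site and 7.25% those of the E box. The table gave 13 promoters for 9 of the 10 members.

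The GC content of the transcripts also differed between members. ANXA1 had 39.3% GC, ANXA4 42.5% and ANXA7 42.8%, while ANXA6 had 56.0% and ANXA8 54.8%, against a median of 48.6% over the measured genes with a value. With the trend of the ratio on GC content taken out, the log2 ratios were 0.30 for ANXA1, 0.31 for ANXA2 and -0.51 for ANXA6. They were 0.19 for ANXA4, 0.23 for ANXA7 and -0.11 for ANXA8. The values of ANXA1 and ANXA4 then lay below their counting intervals.

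The partners of the annexins were described from lists of known genes, chosen with earlier results of these data known. Counts past 1.5-fold in these lists stand beside 3.72% higher and 4.44% lower over all genes with a mean of at least 5 CPM. S100 proteins bind the N-terminal tails of annexins. S100A10, the partner of annexin A2, had 17222 reads in knockdown cells and 15546 in control cells, or 1025 CPM against 774 CPM, with a log2 ratio of 0.41 (0.38 to 0.44). The log2 ratio of ANXA2 was 0.34. The other measured S100 partners had log2 ratios of -0.14 for S100A11, a partner of annexin A1, 0.01 for S100A6 and -0.01 for S100A4. None of the 4 measured partners passed 1.5-fold, and their median log2 ratio was -0.0023.

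Of the annexin A1 receptors and eicosanoid enzymes, 7 of 12 were measured, with a median log2 ratio of 0.26 over the 7. Of the 4 that reached a mean of 5 CPM, 2 were 1.5-fold higher and 0 lower. Over all genes with such a mean, 3.72% were higher and 4.44% lower. PTGES, which makes prostaglandin E2, had 1754 reads in knockdown cells and 1064 in control cells, with a log2 ratio of 0.98 (0.87 to 1.09). PTGS2, the inducible cyclooxygenase, had 406 reads in knockdown cells and 286 in control cells, with a log2 ratio of 0.76 (0.54 to 0.99). PLA2G4A, the cytosolic phospholipase whose activity annexin A1 is known to limit, had 997 reads in knockdown cells and 1213 in control cells and a log2 ratio of -0.02 (-0.15 to 0.10), and PLA2G6 had 0.26 (-0.11 to 0.63) on 124 reads in each column. FPR3, a formyl peptide receptor, had 0 reads in knockdown cells and 2 in control cells, and no row of FPR1 or FPR2 was used here.

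In the list of plasminogen activation, all 6 measured genes had a ratio below 1 and the median log2 ratio was -0.26. The activator PLAU had a log2 ratio of -0.26 (-0.41 to -0.10) and its receptor PLAUR -0.26 (-0.50 to -0.02). SERPINE2, or protease nexin 1, had -0.24 (-0.42 to -0.06). The intervals of the plasminogen receptor PLGRKT, at -0.03 (-0.29 to 0.22), and of the activator PLAT, at -0.32 (-0.89 to 0.25), held 0. PLAT lay below a mean of 5 CPM. ANXA2 and S100A10, which bind plasminogen, had ratios above 1. A link between their ratios and those of this list was not tested.

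Of 21 membrane repair and annexin-binding genes, 20 were measured, 19 reached a mean of 5 CPM and 0 passed 1.5-fold in either direction, with a median log2 ratio of -0.01. AHNAK, a large scaffold that binds annexin A2 with S100A10, had 11577 reads in knockdown cells and 11069 in control cells and a log2 ratio of 0.32 (0.29 to 0.36). MYOF, a membrane repair ferlin with the most reads of the list, had 12841 reads in knockdown cells and 17941 in control cells and a log2 ratio of -0.22 (-0.26 to -0.19). SRI, the calcium sensor sorcin that binds annexin A7, had a log2 ratio of -0.30 (-0.48 to -0.12). SRC, a kinase that phosphorylates annexin A2, had 0.29, and the lysosomal membrane protein LAMP1 had 0.28. EHD2, which acts at caveolae, had -0.24, and VPS4B, an ATPase of membrane scission, had 0.24.

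Scramblases and flippases set how much phosphatidylserine, the ligand of annexins, lies on the cell surface. All 10 were measured, with a median log2 ratio of 0.27. Of 7 with a mean of at least 5 CPM, 2 were 1.5-fold higher and 0 lower. Over all genes with such a mean, 3.72% were higher and 4.44% lower. PLSCR4 had 297 reads in knockdown cells and 189 in control cells and a log2 ratio of 0.91 (0.64 to 1.18), and the flippase ATP8B1 had 662 reads in knockdown cells and 456 in control cells and 0.80 (0.62 to 0.97). PLSCR1 had a log2 ratio of 0.48 and ATP11A 0.28. TMEM30A, the shared flippase subunit, had 2138 reads in knockdown cells and 3490 in control cells and a log2 ratio of -0.45 (-0.53 to -0.37). ANO6, the calcium-activated scramblase, had 0.06 (-0.03 to 0.15).

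Copines are another family of calcium-dependent phospholipid-binding proteins. Of 6 measured, 1 was 1.5-fold lower and 0 higher, with a median log2 ratio of 0.02. The shares over all genes with a mean of at least 5 CPM were 4.44% lower and 3.72% higher. CPNE4 had 256 reads in knockdown cells and 495 in control cells and a log2 ratio of -0.69 (-0.92 to -0.47). CPNE1, with the most reads of the copines, had 3474 reads in knockdown cells and 4251 in control cells and a log2 ratio of -0.03, and CPNE2, CPNE3, CPNE7 and CPNE8 lay between -0.30 and 0.28.

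**Figure D5:**
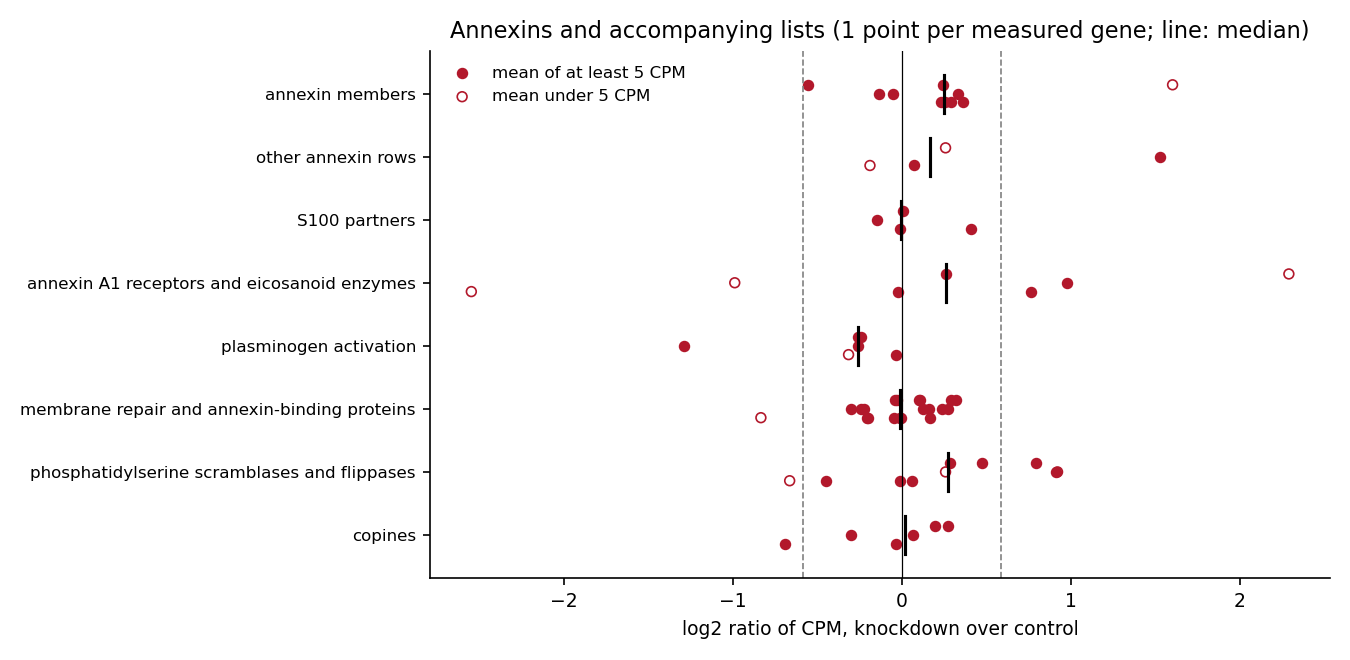
Log2 ratio of CPM, knockdown over control, for each measured gene of the annexin members, the other annexin rows and the 6 lists of partners, with filled points for a mean of at least 5 CPM and open points below it. Vertical bars are medians over all measured genes of a list and dashed lines mark 1.5-fold. The median is 0.25 for the members and -0.26 for plasminogen activation.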

How the data were processed

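RNA was taken with Trizol reagent per the labels. The submitters' processing notes name the hg19 build with TopHat2 2.0.10 and with edgeR 3.2.2, without their roles. The deposited read counts have 1 column per group. The deposited RPKM values equalled count over length over 1 constant per column within 1%. Not given in the sources used here are the read counter, its annotation and strand setting, and how libraries of both layouts became 1 column. Without a stated strand setting, reads of antisense neighbours cannot be told apart. Groups came from the labels, and the knockdown column was matched by the shared start of its name, which lacks 1 letter of the library titles.

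In the count table, 26 symbols stored as dates were restored, and 3 broken rows were left out, holding 0.0872% of knockdown reads and 0.0509% of control reads. Counts were scaled to CPM with TMM factors (1.01 knockdown, 0.991 control) in edgeR 4.0.16 under R 4.3.3, after filterByExpr (count of at least 10, total of at least 15). The planned quasi-likelihood test was not possible with 0 residual degrees of freedom. Genes past 1.5-fold with a mean of at least 5 CPM were counted instead. Levels have exact Poisson intervals and ratios exact conditional (Clopper-Pearson) intervals at 95%, from scipy 1.17.1. The ratio intervals and the 1.5-fold call were tried on simulated Poisson counts. Those hold counting error only, so they cannot show how the intervals fare with other spread. Differences between log2 ratios have normal intervals built from the counts. No floor or pseudocount was used for a printed ratio, except in the alternatives with pseudocounts. In the CPM ratios counted over all genes, a count of 0 was taken as 3 reads.

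The text names all members and annexin rows, NUPR1 and part of the markers, the others entering only sums or ranges of reads. From each list come up to 6 genes over 5 CPM with the largest absolute log2 ratio, and its most abundant gene. The last step adds the 3 nearest genes to 2 members. LXN, APLP1, FEZ2, KRT16, PAOX and ACBD7 came from the last step, and FPR3 and PLAT lie outside the rule. A gene of the plasminogen list that the rule takes is not reported here. Members and lists were chosen with earlier results of these data known. Alternatives were scaling by totals, DESeq2 1.42.0 size factors, the RPKM values with pseudocounts of 1 and 0.1, removal of length trends in 20 bins, other thresholds and, added after seeing the data, removal of GC trends. Sequences came from GENCODE release 29 and RefSeq, both on GRCh38, and the promoters' coordinates are the only ones printed.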

Additional observations from a re-analysis of the deposited data

How the results depend on the processing

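No member's ratio changed direction under the 6 alternatives tried for each (scaling by totals, DESeq2 size factors, RPKM with 2 pseudocounts, length trend and GC trend removed). Of 60 such values 54 stayed inside the counting interval and 6 moved beyond it. ANXA6 ranged from -0.58 to -0.51 and ANXA1 from 0.30 to 0.39, while ANXA9 was 0.63 with a pseudocount of 1 RPKM. The log2 ratio of the summed family, 0.24, was 0.27 with totals alone and 0.28 as a sum of RPKM. With a minimum mean of 1 CPM, or with no filter, 1 member (ANXA9) was 1.5-fold higher, against 0 at 5 CPM. Over the 10689 genes with a mean of at least 5 CPM, 398 were higher and 475 lower, or 3.72% and 4.44%. These counts were 106 and 121 at 2-fold. Looser filters took in more genes. With a minimum of 1 CPM 747 were higher and 938 lower, and with no filter 3104 and 2729 of 19399 rows. The share of all genes at 1 CPM was not computed, so the 1 member there has none beside it. With a pseudocount of 1 RPKM, 229 were lower. No paired analysis was possible because each group has 1 column, and leaving out each library and the layout block were not run for the same reason. Of the list counts, 51 stayed within 1.5 times and 5 moved. At 2-fold the eicosanoid list and the scramblase and flippase list each had 0 genes higher, and the copines had 0 lower. With a minimum of 1 CPM, the membrane repair list and the scramblase and flippase list each had 1 gene lower. Depth limits ANXA9 and the pseudogene rows, which rest on few reads. The spread between cultures and libraries was not measurable here.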

Other observations

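The other members' promoter windows differed in the motif letters they held. The ANXA4 windows held 6 and 3 GC boxes and no TATA box, and the window with 3 also held 1 E box. Their GC content was 78.0% and 72.0%. ANXA7 held 3 GC boxes and 1 CCAAT box, and ANXA5 held 1 GC box. Of the 3 ANXA11 windows, 1 held a TATA box, 61 bases before the start, another held 4 GC boxes and the last held 1 CCAAT box. The ANXA3 and ANXA9 windows held none of the letters searched. A match of letters is a description and shows no binding.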
